A study of Mus musculus with 122 samples.

Results

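The regions described here are the stretches of the mouse genome where C/EBPβ was bound in wild-type alveolar macrophages and where none of 5 lists of open chromatin held a peak. The 2 deposited lists of C/EBPβ peaks were merged where peaks overlapped by at least 1 bp, regions with a peak in both lists were kept, and those that overlapped any peak of the 5 ATAC lists were removed. This left 1892 of 18752 bound regions, or 10.1% (exact Clopper-Pearson 95% interval 9.66 to 10.5%), which are called outside regions below. The interval treats regions as independent draws and does not measure the spread between libraries. Leaving out 1 list in turn gave shares of 10.29 to 18.31%. Leaving out an ATAC list can only raise the share, and leaving out a ChIP list drops the need for a peak in both. This range therefore does not measure the spread between libraries either. The other 16860 bound regions, called open bound regions, held a peak of at least 1 ATAC list, and 12383 of them a peak of all 5. The members were chosen by their ChIP and ATAC peak calls, so peak heights, folds and gaps to ATAC peaks are given as a description and were not tested.

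C/EBPβ binding was mapped by ChIPmentation, a chromatin immunoprecipitation in which Tn5 transposase adds the adapters, with the antibody C-19 in 2 samples of lavage macrophages from C57BL/6 wild-type mice. Open chromatin was mapped by ATAC sequencing in lavage macrophages kept in culture with CSF2 (20 ng/ml) for 7 days and given interferon alpha (1000 units/ml), from mice that carried the Mx1-Cre transgene Tg(Mx1-cre)1Cgn/J on C57BL/6 alone (2 controls) or together with Cebpb flox/flox from Cebpbtm1.1Elgaz/J (3 knockouts). Both ATAC groups therefore carried Cre, whose Mx1 promoter responds to interferon, and received interferon, while for the ChIP cells the labels describe fixation after lavage and no culture. A region closed in the lung and a region that closed in culture cannot be told apart with these lists. RNA was counted in 32 libraries of 4 experiments on macrophages isolated by sorting. In adult lavage macrophages without treatment, 4 libraries of wild-type (Cebpb +/+) mice were set against 4 of knockout (Cebpb -/-) cells sorted as CD11b low and 4 sorted as CD11b high, all of the strain C/EBPb tm1Pfj on a mixed background, whose knockout is carried by every cell of the animal. The chromatin-matched experiment had 3 wild-type and 3 knockout libraries of the same strain. The CD11cCre experiment had 3 controls (CD11c +/Cre, Tg(Itgax-cre,-EGFP)4097Ach/J, C57BL/6) and 4 knockouts (CD11c +/Cre with Cebpb flox/flox from Cebpbtm1.1Elgaz/J), so that Cre from the CD11c promoter was in both. The E18 experiment had 3 wild-type and 4 knockout libraries of premature alveolar macrophages from whole lung at embryonic day 18, again C/EBPb tm1Pfj. The labels do not say that replicates came from separate animals, so p-values measure only the spread between these samples.

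C/EBPβ is a leucine-zipper transcription factor that binds DNA as a dimer at palindromic sites, and in macrophages it acts together with partners such as PU.1 and AP-1. Alveolar macrophages live in the air spaces, take up surfactant lipid, and depend on the cytokine CSF2 and on the nuclear receptor PPARγ. Tn5 inserts where DNA is free of nucleosomes, so an ATAC peak marks accessible DNA, and its absence from a list says only that the site did not pass the caller's threshold there.

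Most outside regions lay away from gene starts, but 28 RefSeq promoter windows (250 bases before to 50 after a start, from RefSeq's table for GRCm38.p6) had at least 150 of their 300 bases covered by outside regions and by no open bound region. The covered stretch upstream of the start is printed for 4 of the genes, picked after their RNA values were seen, because they are genes whose RNA changed in the knockouts and they include promoters with and without a C/EBP match. Each is written 5′ to 3′ along the gene, and capitals mark matches to TTGCNNAA (C/EBP) and TGANTCA (AP-1) on either strand.
Cidec, chr6:113434765-113435014, minus strand: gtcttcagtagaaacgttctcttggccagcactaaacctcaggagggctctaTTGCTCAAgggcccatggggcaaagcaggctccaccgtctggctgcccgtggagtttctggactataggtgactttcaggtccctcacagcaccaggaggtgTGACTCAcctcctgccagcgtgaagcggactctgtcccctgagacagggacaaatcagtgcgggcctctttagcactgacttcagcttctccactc
Plet1, chr9:50494275-50494480, plus strand: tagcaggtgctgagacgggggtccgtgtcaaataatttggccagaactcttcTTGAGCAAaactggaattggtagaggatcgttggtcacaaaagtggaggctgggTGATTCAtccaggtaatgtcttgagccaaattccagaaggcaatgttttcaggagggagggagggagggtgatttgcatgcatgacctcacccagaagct
Nfil3, chr13:52981105-52981289, minus strand: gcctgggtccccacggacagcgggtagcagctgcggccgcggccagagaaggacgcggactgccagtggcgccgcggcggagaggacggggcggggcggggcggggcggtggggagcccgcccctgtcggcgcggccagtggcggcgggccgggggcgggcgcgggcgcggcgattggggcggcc
Pim1, chr17:29492835-29493052, plus strand: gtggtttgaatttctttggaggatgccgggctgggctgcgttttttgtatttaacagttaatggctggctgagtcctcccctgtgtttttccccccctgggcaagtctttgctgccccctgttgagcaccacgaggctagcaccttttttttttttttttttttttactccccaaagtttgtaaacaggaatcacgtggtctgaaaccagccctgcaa
The Cidec stretch held a C/EBP match that began 198 bases before the start and an AP-1 match 96 bases before it. Plet1 also had a C/EBP match 198 bases before its start, in the other orientation, and an AP-1 match 144 bases before it. The Nfil3 stretch held neither motif, and 83.8% of its bases were G or C, with 30 CG dinucleotides. Pim1 held neither motif either, at 47.2% G or C and 4 CG dinucleotides.

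Over all 28 promoter windows covered by an outside region, 6 (21.4%, exact 95% interval 8.30 to 41.0%) held TTGCNNAA, against 498 of 2603 windows covered only by open bound regions (19.1%) and 10.8% of all 32851 windows. The 6 were those of Cidec, Plet1, Tmcc3, Add3 and 2 predicted genes. The strict palindrome TTGCGCAA, which is one form of TTGCNNAA, was in 0 of the 28, in 1.54% of the open ones and in 0.183% of all windows. The composite site TGATGCAA, bound by C/EBP with ATF factors, was in 1 outside window (3.57%), that of Arid5b, against 1.65% and 0.895%. AP-1 sites (TGANTCA) were in 3 of 28 (10.7%), 6.11% and 7.81%, PU.1 sites (GAGGAAGT) in 2 (7.14%), 4.07% and 3.20%, and RUNX sites (TGTGGTT) in 3 (10.7%), 4.26% and 5.27%. Windows with 10 or more CG dinucleotides made up 42.9% of the outside ones, 78.1% of the open ones and 43.5% of all. The interval of the outside share for TTGCNNAA holds the shares of both other sets, so a difference was not detectable with 28 windows. The letters TTGCNNAA were chosen after the data were seen, and regions away from promoters were not searched.

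The outside regions were narrower and weaker than the open ones. Their median width was 633 bp, against 845 bp for regions open in all 5 lists. The fold over background is the authors' value per peak, and of each region the lower of its values in the 2 lists was used. Its median was 7.03 in outside regions and 9.87 in open bound regions. Within the first ChIP list alone the medians were 8.59 and 11.7, and within the second 7.81 and 10.7. When the bound regions of the numbered chromosomes and X were ordered by this fold and cut into 10 groups of like size, 358 regions of the weakest group (19.1%), 198 of the fifth (10.6%) and 21 of the strongest (1.12%) were outside. The share was lower at each step from the weakest to the strongest group.

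The caller's q values show how near the outside regions lie to the list's limit. The median of the lower −log10 q was 8.01 in outside and 13.8 in open bound regions, and 233 outside regions (12.6%) had a value under 5.5, where the lists begin at about 5. At the other limit, 52 outside regions lay under 50 bp from an ATAC peak (median fold 7.06), and 39 open ones overlapped a peak by no more than 50 bp (7.03). Regions on either side of the rule's limit had almost the same median fold.

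**Figure D1:**
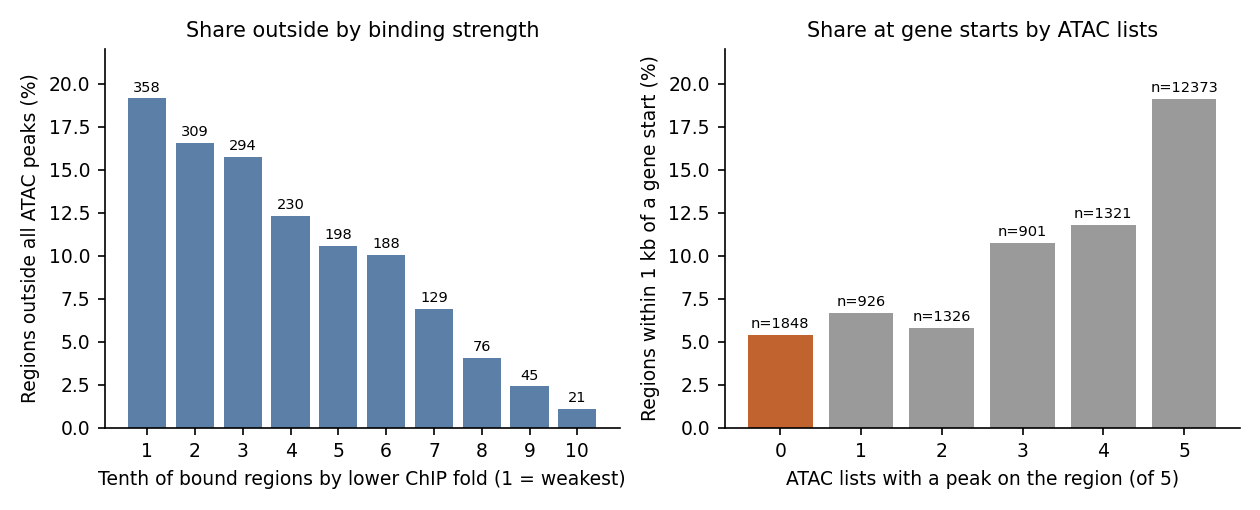
Left, bound regions on the numbered chromosomes and X split into 10 groups by the lower of their 2 ChIP folds (1 weakest, 10 strongest), with the percentage outside all ATAC peaks as bars and the number of outside regions above each. Right, percentage of bound regions with the ChIP summit within 1 kb of a listed RefSeq gene start, by the number of ATAC lists with a peak there. Bars give the percentage and the number of regions stands above. The share outside falls from 19.1% to 1.12%, and the share at gene starts is 5.41% at 0 lists and 19.1% at 5.

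On the numbered chromosomes and X, 1848 outside regions were placed against RefSeq genes (GRCm38.p6). Distances to the nearest start or nearest gene were taken from the summit of the ChIP peak with the higher fold. Only 100 of the 1848 (5.41%) lay within 1 kb of a listed gene start, against 16.4% of open bound regions. RefSeq starts were not available for some genes, among them Arid3a, Cd74 and Dpysl3. Such genes enter no count of starts or promoter windows, above or below. The share was 6.70% for regions open in 1 list, 5.81% in 2, 10.8% in 3, 11.8% in 4 and 19.1% in all 5. The median outside region was 15811 bp from the nearest start (quartiles 3965 and 42561). Counted to 5 kb the shares were 27.9% and 30.8%, so the outside and open regions differed less at 5 kb than at 1 kb. By chromosome, the share of bound regions that were outside ran from 8.37% on chromosome 11 to 12.4% on X. The other 44 outside regions lay on 6 sequences among the unplaced scaffolds and chromosomes Y and M, where they were 77.2% of the bound regions, and had a median fold of 6.44; they enter no count below.

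Most outside regions had an ATAC peak within a few kb. Their median gap to the nearest ATAC peak of any list was 1264 bp (quartiles 525 and 2891), 445 (24.1%) had one within 500 bp, and 811 (43.9%) within 1 kb. The nearest open bound region was at a median of 4153 bp. A further 839 had their nearest ATAC peak at 1 to 10 kb, and 198 (10.7%) had none within 10 kb. These 198 had a median fold of 6.58 and a maximum of 20.3, against 7.40 and 45.3 for the 811 close to a peak. They also lay apart from genes. Only 39.4% were inside a gene, against 60% of the close ones, 1 of them was within 1 kb of a gene start, and their median distance to a start was 48820 bp. Most outside regions stood alone. Joined over gaps of up to 20 kb, 1420 of the 1848 had no other outside region with them, 172 runs were pairs and 27 runs held 3 or more (84 regions), including runs of 4 at B3gnt2, Sulf2 and Txn1.

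**Figure D2:**
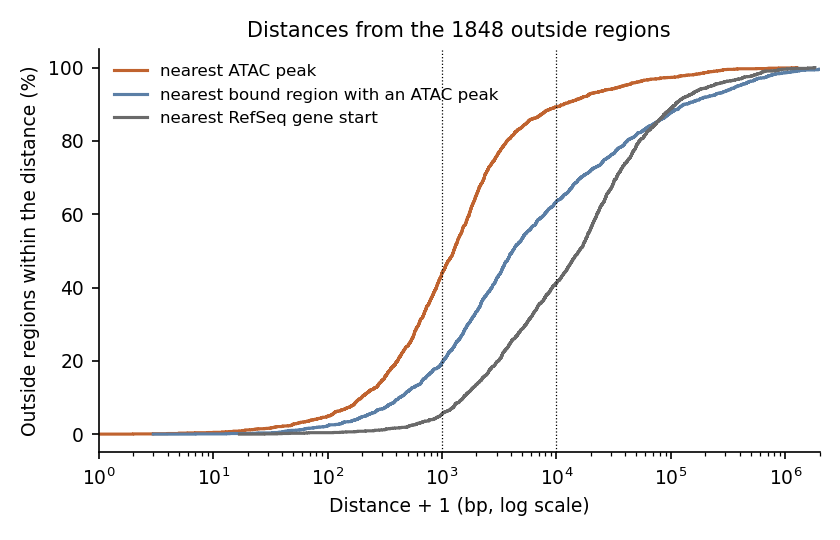
Cumulative percentage of the 1848 outside regions (y axis) within a given distance (x axis, bp, log scale, 1 added) of the nearest ATAC peak of any list, of the nearest bound region with an ATAC peak, and of the nearest RefSeq gene start. Dotted lines mark 1 and 10 kb. Distances to peaks and regions were taken from edge to edge, those to gene starts from the ChIP summit. At 1 kb the ATAC curve stands at 43.9%.

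The 10 strongest outside regions had a lower fold of 28.9 or more. The highest was at chr10:79927835-79929193, inside Arid3a, a DNA-binding protein of haematopoietic cells, with folds of 53.3 and 45.3 and an ATAC peak 312 bp away. The second, at chr9:80208322-80209452, lay inside Myo6, an actin motor that moves towards the minus end, with folds of 40.6 and 37.0. It was 5745 bp from an ATAC peak and 445176 bp from the nearest open bound region. The third, at chr6:114890028-114891624 in Vgll4, a cofactor of TEAD factors, had folds of 51.5 and 34.6 and a second outside region close by at chr6:114892038-114892861. The next 7 had lower folds of 28.9 to 32.5 and had as their nearest genes Efcab11, Cdkl4, St3gal1, Mdm1, Cisd1, Ang and Fabp5. Among the 10, the gap to the nearest ATAC peak ran from 312 bp (Arid3a) to 9440 bp (Fabp5, whose gene lay 54523 bp away). Of the 198 regions with no ATAC peak within 10 kb, the strongest, at chr8:3754300-3754836, lay 5513 bp from the start of Cd209a, a C-type lectin of the DC-SIGN family, with folds of 20.3 and 22.1 and its nearest ATAC peak 35372 bp away. Hairpins of 4 of 1005 miRNAs lay within 1 kb of one of the 1848 outside regions (Mir6546, Mir7663, Mir6962 and Mir8094), and 36 within 1 kb of one of the 16847 open bound regions, which is in proportion to the number of regions.

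Next, genes were linked to regions within 10 kb of the gene body. Of 1848 outside regions, 1329 (71.9%) had such a gene. Of 21218 genes with a position, 296 were near outside regions alone, 1053 near outside and open bound regions, 6983 near open bound regions alone and 12886 near neither. Many of the 296 were silent or low in adult wild-type macrophages, and 38.5% had no count in any of the 4 libraries. Their median was 2.01 CPM (the gene's counts scaled to the library total times edgeR's TMM scaling factor). Of the 296, 36.1% reached 10 CPM, close to the 36.6% of all placed genes. Of the 1053 genes with both kinds of region, 71.5% reached 10 CPM, with a median of 33.0, and of genes near open bound regions alone 59.4%, with a median of 17 CPM. Genes with both kinds of region thus had the highest levels of the 3 groups. They were also the longest, at a median of 52084 bp against 28146 bp for outside regions alone and 23655 bp for open bound regions alone.

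The libraries held 642269 to 5932246 counts, and 3 counts, the least taken as above 0, stood for 0.506 to 4.67 CPM of the unscaled library totals. Such limits cover counting error only. Cebpb itself was read at 543 to 1445 CPM in adult wild-type libraries, 31.5 to 56.7 in CD11b low and 24.4 to 86.0 in CD11b high knockouts, 421 to 528 against 9.59 to 31.6 in the chromatin-matched, 585 to 682 against 25.0 to 81.1 in the CD11cCre and 1706 to 2770.0 against 79.3 to 147 in the E18 experiment, with no overlap. An outside region itself lay inside Cebpb (chr2:167689696-167690320, folds 10.2 and 5.76). In adult controls the markers matched the labelled cell type. All 8 alveolar macrophage markers had a group mean of 10 CPM or more in adult wild-type and Cre control libraries. Their sum was 6841 to 8959 CPM in the adult and 8348 to 9938 in the chromatin-matched wild type. In the CD11cCre controls it was 36560 to 39750 CPM. In all these control libraries 6 lymphocyte markers summed to at most 1.03 CPM, 5 stroma and endothelium markers to 2.38 and 5 dendritic cell markers to 7.80. In the same libraries neutrophil markers summed to 43.8 to 71.1 CPM, epithelium to 26.7 to 139, erythroid to 2.65 to 126 and monocyte and tissue macrophage markers to 17.1 to 206. In E18 wild-type libraries 5 of the 8 alveolar macrophage markers reached a mean of 10 CPM, with a sum of 544 to 992 CPM. The 4 erythroid markers there summed to more, 1268 to 6627 CPM, and to 1590 to 3619 in E18 knockouts. In chromatin-matched knockouts the erythroid markers summed to 539 to 1673 CPM, against 118 to 124 in their wild type. In the cultured cells, 3 of 8 alveolar macrophage markers (Siglecf, Chil3 and Itgax) had an ATAC peak within 1 kb of the start in all 5 lists, as did 1 of 8 neutrophil markers (S100a8), 1 of 5 dendritic cell markers (Flt3) and 0 of the 4 lymphocyte, 5 monocyte and tissue macrophage, 3 epithelium, 3 erythroid and 2 stroma and endothelium markers placed. The summed alveolar macrophage markers were lower in every knockout (for example 568 to 1050 against 8348 to 9938 CPM in the chromatin-matched libraries), and the 7 monocyte and tissue macrophage markers higher (5438 to 12050 against 45.6 to 88.7). The part of this shift in the gene changes below was not tested, and in bulk samples fewer cells of a type and less RNA per cell cannot be told apart.

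To ask whether genes near outside regions changed without C/EBPβ, knockout libraries were compared with their controls. Among genes near outside regions alone, more rose than fell in each comparison, although this order turned in 3 of the 5 when genes were linked within 2 kb in place of 10 kb. In CD11b low cells 16 of 119 tested genes rose (13.4%, against 8.29% of all genes tested) and 6 fell (5.04% against 6.83%). In CD11b high cells 17 of 119 rose (14.3% against 12.2%) and 9 fell (7.56% against 11.8%); the CD11b low and CD11b high comparisons share the same 4 wild-type libraries. In the chromatin-matched experiment 23 of 152 rose (15.1% against 14.6%) and 21 fell (13.8% against 12.6%). In the CD11cCre experiment 15 of 143 rose (10.5% against 10.3%) and 8 fell (5.59% against 6.48%). In the E18 cells 20 of 147 rose (13.6% against 12%) and 9 fell (6.12% against 9.55%). Apart from the rises in CD11b low cells, these shares were close to or below those of all genes. Genes near no bound region, which also lack open ones, rose in 8.05, 11.7, 14.5, 8.44 and 10.7% of cases in the same order. They fell in 2.77, 5.35, 7.76, 3.42 and 6.66%. Beside these, the shares near outside regions alone were higher, except for the falls in E18 cells, and the difference was not tested. The median log2 change of the group was 0.12, 0.09, 0.06, −0.04 and 0.05 in the 5 comparisons, beside 0.00, 0.01, 0.02, −0.00 and −0.02 over all genes tested. Linked within 2 kb, the counts of higher and lower genes became 9 and 13 in CD11b low, 12 and 21 in CD11b high and 16 and 30 in chromatin-matched cells, against 15 and 11 in CD11cCre and 17 and 8 in E18 cells. The distance also changes which genes have no open bound region near them. The number of genes tested at 2 kb is not given, so these counts cannot be set against the shares of all genes. The CD11b low count of 22 was 12 without knockout CD11b low replicate 2 and 14 without wild-type replicate 2, and the E18 count of 29 was 16 without wild-type replicate 2 and 18 without replicate 3.

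A larger share of genes fell where an outside region stood beside open bound regions. In CD11b low cells 141 of 789 tested fell (17.9%), in CD11b high 228 (28.9%), in the chromatin-matched experiment 260 of 874 (29.7%), in CD11cCre 134 of 873 (15.3%) and in E18 150 of 847 (17.7%). Genes near open bound regions alone fell in 7.73, 13.4, 13.6, 7.26 and 10.5% of cases in the same order. The genes with both kinds of region rose in 7.73, 12.2, 12.2, 13.3 and 17.2% of cases, against 8.4, 12.6, 15, 11.1 and 12.1% with open bound regions alone, so that in CD11cCre and E18 cells the shares of both rises and falls were larger. Their median log2 change was −0.14, −0.24, −0.24, −0.03 and 0.04 in the 5 comparisons. These genes also had more open bound regions each, so they were compared at like numbers. With 1 open bound region within 10 kb, 41 of 180 genes with an outside region fell in CD11b high cells (22.8%), against 210 of 2364 without one (8.88%). In the chromatin-matched experiment the shares were 19.7% and 9.83%. With 3 to 5 open bound regions they were 34.5% and 20.7% in CD11b high cells and 32.7% and 20.6% in the chromatin-matched. With 6 or more, the CD11b high shares were 32% and 32.1%. At 1 open bound region the genes with an outside region were longer (median 29097 against 20763 bp), and the part of gene length in these shares was not tested. The difference between the groups of genes was not tested.

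**Figure D3:**
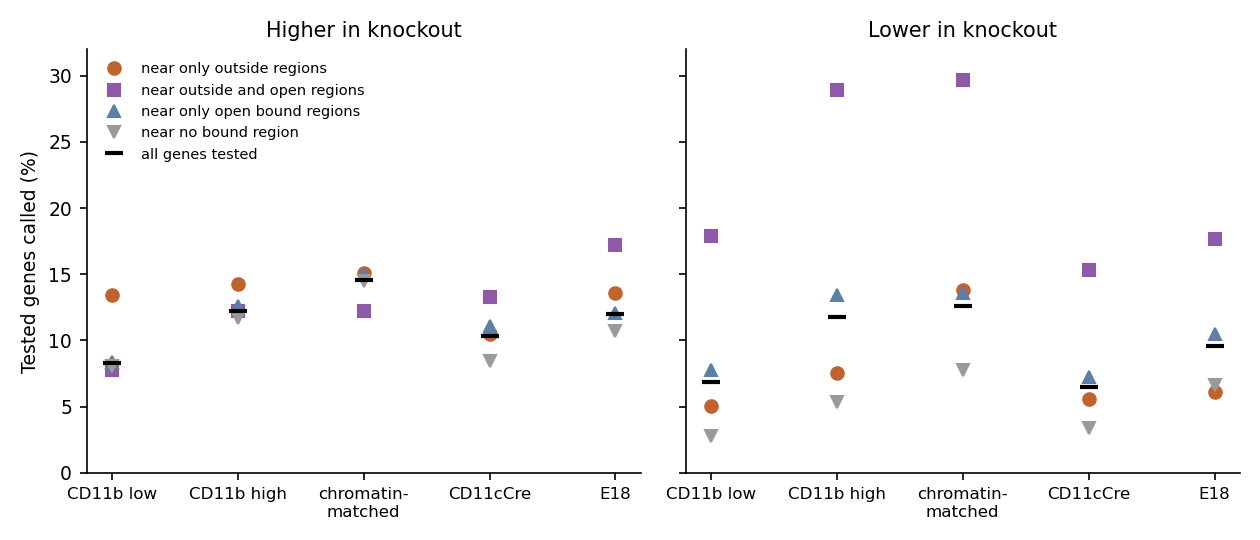
Percentage of tested genes that rose (left) or fell (right) in the 5 comparisons of knockout with control, for genes near outside regions alone, near outside and open bound regions, near open bound regions alone, near no bound region, and for all genes tested (black bars). Genes near outside and open bound regions have the highest share of falls in each comparison, 15.3% to 29.7%.

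**Figure D4:**
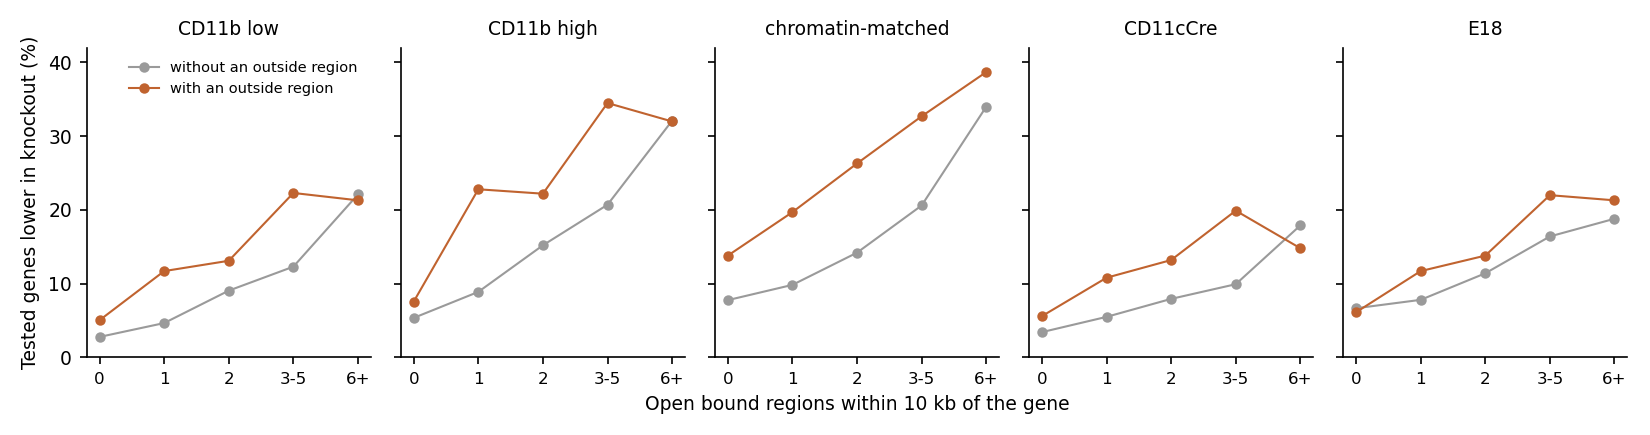
Percentage of tested genes that fell (y axis) by the number of open bound regions within 10 kb (x axis), for genes with (orange) and without (grey) an outside region within 10 kb, in the 5 comparisons. At 1 open bound region the orange points lie above the grey ones in all 5, for example 22.8% against 8.88% in CD11b high cells.

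At gene starts, 55 named genes had the listed start nearest to the summit of an outside region, at most 1 kb away. In CD11b low cells 3 of 43 tested rose (6.98%, against 8.29% of all genes tested) and 8 fell (18.6% against 6.83%). In CD11b high cells 5 of 43 rose (11.6% against 12.2%) and 11 fell (25.6% against 11.8%), and in the chromatin-matched experiment 7 of 46 rose (15.2% against 14.6%) and 10 fell (21.7% against 12.6%). In CD11cCre cells 5 of 46 rose (10.9% against 10.3%) and 6 fell (13% against 6.48%), and in E18 cells 7 of 48 rose (14.6% against 12%) and 7 fell (14.6% against 9.55%). Abhd5 and Cidec fell in all 5. These shares do not allow for open bound regions near the same genes, and their part in the falls was not tested. Genes at starts that are described below were chosen after their values were seen. Abhd5 is the coactivator of adipose triglyceride lipase. Its outside region (chr9:122350365-122350908, folds 8.50 and 6.58) lay 277 bp from an ATAC peak and 188 bp from an open bound region. Its adult wild-type libraries read 195, 165, 138 and 159.9 CPM, the CD11b low 76.7, 68.7, 63.9 and 77.2, and the CD11b high 61.9, 48.8, 74.8 and 48.6. Every knockout library was below every wild-type one, and Abhd5 fell by 1.20 on the log2 scale (SE 0.20, adjusted p = 0.000216) in CD11b low and fell by 1.50 (log2, SE 0.20, adjusted p = 9.24e-06) in CD11b high cells. In E18 cells its change was larger, with 162, 182 and 188 CPM in wild-type and 16.7, 16.9, 8.67 and 17 in knockout libraries, and it fell by 3.56 (log2, SE 0.24, adjusted p = 2.34e-07).

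Cidec, a lipid droplet protein that promotes droplet fusion, had the promoter with the C/EBP and AP-1 matches shown above. Its outside region (chr6:113434414-113435291, folds 14.8 and 16.6) lay 334 bp from an ATAC peak and 194 bp from an open bound region. Adult wild-type libraries held 442, 287, 295 and 399 CPM, CD11b low 71.2, 53.2, 48.8 and 42.3, and CD11b high 7.55, 7.58, 13.6 and 15.2. The 3 groups did not overlap, and the CD11b high libraries were the lowest. Cidec fell by 2.71 (log2, SE 0.24, adjusted p = 2.08e-07) in CD11b low cells and fell by 4.99 (log2, SE 0.28, adjusted p = 4.89e-10) in CD11b high cells. In the chromatin-matched experiment the controls held 528, 504 and 431 CPM and the knockouts 8.97, 33.6 and 7.94, and Cidec fell by 4.89 (log2, SE 0.58, adjusted p = 0.000874), and fell by 5.85 without knockout replicate 2. The CD11cCre values, 518, 541 and 527 against 258, 184, 278 and 385 CPM, were closest, and Cidec fell by 0.94 (log2, SE 0.19, adjusted p = 0.00412) there. In E18 cells it was at 10.9, 22.4 and 27.4 CPM in wild-type and 0.351, 0, 0 and 0.579 in knockout libraries. The knockout values lie at or under the limit of 3 counts, and Cidec fell by 5.95 (log2, SE 0.63, adjusted p = 1.19e-05), and fell by 6.61 without knockout replicate 4.

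Nfil3, a leucine-zipper repressor, had the strongest outside region that covered a named gene's promoter (chr13:52981105-52982181, folds 36.7 and 28.8, 115 bp from an ATAC peak and 187 bp from an open bound region), over the GC-rich stretch shown above. Its adult wild-type libraries read 55.7, 32.5, 35.8 and 27.7 CPM, CD11b low 14.4, 12.0, 14.6 and 7.47 and CD11b high 18.9, 9.26, 16.3 and 5.40. No knockout library reached the lowest wild-type one. Nfil3 fell by 1.57 (log2, SE 0.35, adjusted p = 0.00409) in CD11b low, fell by 1.66 (log2, SE 0.35, adjusted p = 0.00148) in CD11b high, fell by 1.48 (log2, SE 0.24, adjusted p = 0.00148) in chromatin-matched and fell by 1.11 (log2, SE 0.19, adjusted p = 0.00167) in CD11cCre cells. In E18 cells the level was higher in both groups, 219, 209 and 208 CPM in wild-type and 226, 256, 171 and 175 in knockout libraries. These overlapped, and the change was −0.04 (SE 0.20, adjusted p = 0.927).

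Plet1, a surface protein that marks alveolar macrophages, had 3 outside regions within 10 kb and only 1 open bound region. The regions were chr9:50493829-50494480 at the promoter shown above, chr9:50495342-50495812 and chr9:50502940-50503524, all with lower folds of 5.70 to 6.58. Wild-type libraries of the adult experiment held 943, 1121, 900.5 and 906 CPM, CD11b low 1119, 495, 906 and 914 and CD11b high 114, 157, 368 and 283. CD11b low libraries overlapped the wild-type ones, with a change of −0.17 (SE 0.30, adjusted p = 0.751), while the CD11b high libraries lay below both and Plet1 fell by 2.08 (log2, SE 0.31, adjusted p = 4.74e-05). It also fell by 2.45 (log2, SE 0.31, adjusted p = 0.000479) in the chromatin-matched and fell by 5.34 (log2, SE 0.69, adjusted p = 0.000725) in the E18 experiment, where it fell by 6.08 without knockout replicate 2. In CD11cCre cells the direction was the other one: controls held 948, 784 and 894 CPM and knockouts 1584, 1404, 1364 and 1052, and Plet1 rose by 0.63 (log2, SE 0.14, adjusted p = 0.00842), with an adjusted p of 0.0538 without control replicate 2.

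Pim1, a serine/threonine kinase induced by cytokines, was higher in knockouts. The outside region at its promoter (chr17:29492203-29493052, folds 7.81 and 7.40) lay 743 bp from an ATAC peak. Within 10 kb the gene had 2 outside and 2 open bound regions. Adult wild-type libraries held 117, 126, 97.4 and 82.0 CPM, CD11b low 146, 350.3, 278 and 148 and CD11b high 541, 469, 252 and 310.2. Both knockout groups lay above the wild-type range. Pim1 rose by 1.90 (log2, SE 0.30, adjusted p = 8.11e-05) in CD11b high, rose by 2.23 (log2, SE 0.27, adjusted p = 0.000277) in chromatin-matched and rose by 1.03 (log2, SE 0.22, adjusted p = 0.00308) in E18 cells. In CD11b low cells it rose by 1.12 (log2, SE 0.30, adjusted p = 0.0142), with adjusted p values of 0.0576 and 0.0522 without knockout CD11b low replicate 2 or 3 and of 0.0503 without wild-type replicate 4. The CD11cCre groups overlapped, 82.8, 97.4 and 155 against 124, 135, 141 and 282 CPM, with a change of 0.59 (SE 0.29, adjusted p = 0.218).

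Gcnt2, which makes the branches of I-antigen glycans, had an outside region over its promoter (chr13:40916716-40917599, folds 11.7 and 12.3) and 8 open bound regions near it. Adult wild-type libraries held 87.6, 114, 66.9 and 57.4 CPM, CD11b low 25.3, 22.3, 24.7 and 26.1 and CD11b high 10.6, 23.6, 20.4 and 25.5. Both knockout groups lay below, and Gcnt2 fell by 1.70 (log2, SE 0.27, adjusted p = 0.000166) and fell by 1.99 (log2, SE 0.27, adjusted p = 1.47e-05). In CD11cCre cells the groups overlapped and the change was −0.12 (SE 0.15, adjusted p = 0.68). Egr2, a zinc-finger transcription factor, and its neighbour Ado shared 1 outside region (chr10:67535106-67535909, folds 17.2 and 5.76) and had no open bound region within 10 kb. Egr2 was read at 70.3, 65.0, 31.1 and 29.7 CPM in adult wild-type, 19.2, 3.43, 19.1 and 37.4 in CD11b low and 2.26, 8.42, 21.8 and 14.2 in CD11b high libraries. The CD11b high libraries alone lay below the wild-type range, and Egr2 fell by 2.10 (log2, SE 0.51, adjusted p = 0.00462) there. In E18 cells it rose by 0.90 (log2, SE 0.25, adjusted p = 0.0178), with adjusted p values of 0.0815 and 0.0652 without wild-type replicate 2 or 3.

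Of 20 genes of alveolar macrophage identity, 7 (35%) had an outside region within 10 kb, against 6.36% of all placed genes. All 7 also had open bound regions, as did 95% of the 20, against 37.9% of all placed genes. Near outside regions alone were 0 of the 20, against 1.4%. The 7 were Pparg, Cidec, Atp6v0d2, Bhlhe40, Plet1, Cebpb and Abcg1. In CD11b low cells 3 of the 7 fell and 1 rose, in CD11b high, chromatin-matched and E18 cells 6 fell and 1 rose, and in CD11cCre cells 3 fell and 2 rose. The gene that rose in each of the 5 was Bhlhe40, a repressor of the basic helix-loop-helix class, by 0.91, 1.23, 1.06, 0.71 and 2.16 on the log2 scale, with an adjusted p of 0.0584 in the chromatin-matched experiment without wild-type replicate 3. The list includes Cebpb, which the knockout removes. Of other lists, lipid and cholesterol handling had 4 of 20 genes near an outside region (Plin2, Abca1, Pnpla2 and Dgat2), neutrophil granule genes 3 of 17 (Csf3r, S100a9 and Mmp9), the C/EBP family 2 of 7 (Cebpb and Cebpg), monocyte genes 2 of 23 (Ccr2 and Cxcl2), adipocyte genes 1 of 11 (Adipor2), ATF4 targets 1 of 12 (Sesn2) and hepatocyte genes 0 of 18. Of the 19 genes in any list, 2 rose and 5 fell of 17 tested in CD11b low, 3 and 9 of 17 in CD11b high, 3 and 8 of 18 in chromatin-matched, 6 and 4 of 18 in CD11cCre and 3 and 10 of 18 in E18 cells. Over all genes tested, 8.29, 12.2, 14.6, 10.3 and 12% rose and 6.83, 11.8, 12.6, 6.48 and 9.55% fell in the same order. The lists are small, were chosen with earlier results of these data known, and were not tested as sets.

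Pparg, the nuclear receptor that alveolar macrophages depend on, had 5 outside regions inside it and 7 open bound regions within 10 kb. The strongest of the 5 lay at chr6:115368453-115369183 (folds 9.77 and 12.3), next to chr6:115367626-115368354 (8.59 and 8.23), and the others at chr6:115412232-115413120, chr6:115430671-115431206 and chr6:115452554-115453149. Adult wild-type libraries held 365, 250.4, 168 and 189.6 CPM, CD11b low 93.8, 61.8, 73.4 and 63.5 and CD11b high 28.7, 32.8, 50.3 and 39.3. The 3 groups did not overlap. Pparg fell by 1.71 (log2, SE 0.25, adjusted p = 6.6e-05) in CD11b low, fell by 2.70 (log2, SE 0.26, adjusted p = 2.74e-07) in CD11b high, fell by 3.31 (log2, SE 0.28, adjusted p = 3.27e-05) in chromatin-matched, fell by 0.51 (log2, SE 0.11, adjusted p = 0.00821) in CD11cCre and fell by 4.50 (log2, SE 0.23, adjusted p = 2.85e-08) in E18 cells. Its E18 knockout libraries, at 9.66, 6.68, 7.92 and 5.79 CPM, were the lowest of all groups, against 158, 176 and 179 in the wild type.

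Of the 4 lipid genes, Plin2 and Dgat2 passed the test in E18 cells alone. Plin2, a coat protein of lipid droplets with an outside region centred 578 bp before its start (chr4:86670401-86670873), was read at 387, 535 and 519.9 CPM in E18 wild-type and 90.6, 102, 89.7 and 67.9 in knockout libraries. The groups were far apart, and Plin2 fell by 2.46 (log2, SE 0.21, adjusted p = 2.24e-06). In adult cells its groups overlapped, with changes of −0.42 (SE 0.21, adjusted p = 0.187) in CD11b low and −0.52 (SE 0.21, adjusted p = 0.0769) in CD11b high cells. Dgat2, which makes triglyceride, fell by 2.96 (log2, SE 0.22, adjusted p = 5.15e-07) in E18 cells. Abca1, the cholesterol exporter, was at 10.6, 23.0, 18.6 and 25.6 CPM in adult wild-type against 134, 80.7, 108 and 87.2 in CD11b low libraries, which do not overlap, and rose by 2.40 (log2, SE 0.36, adjusted p = 7.75e-05). Adipor2, a receptor for adiponectin, fell by 2.2 (log2, SE 0.23, adjusted p = 4.8e-07) in CD11b high and fell by 2.77 (log2, SE 0.23, adjusted p = 1.16e-06) in E18 cells.

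The genes in the next paragraphs were near outside regions alone. Cd74, which chaperones MHC class II molecules, had a weak region inside it (folds 7.03 and 6.58, 35 bp from an ATAC peak). It was at 330.3, 165, 229 and 262 CPM in adult wild-type libraries, 5959, 3656, 7668 and 2510.0 in CD11b low and 4169.8, 3098, 4206 and 1389.6 in CD11b high. Every knockout library was far above the wild type. Cd74 rose by 4.33 (log2, SE 0.39, adjusted p = 3.38e-07) in CD11b low, rose by 3.70 (log2, SE 0.38, adjusted p = 6.79e-07) in CD11b high, rose by 5.53 (log2, SE 0.73, adjusted p = 0.00189) in chromatin-matched, rose by 4.77 (log2, SE 0.22, adjusted p = 9.33e-08) in CD11cCre and rose by 3.87 (log2, SE 0.44, adjusted p = 2.09e-05) in E18 cells, and the chromatin-matched value was 6.49 without wild-type replicate 3. Cd74 is also a gene of dendritic cells, whose 5 markers (Flt3, Xcr1, Clec9a, Zbtb46 and Cd209a) summed to 341 to 771 CPM in E18 knockouts against 13.4 to 18.3 in the wild type, with Cd209a as the largest part of the sum. Their part in the result was not tested.

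Crip1, a small LIM-domain protein, shares 1 outside region (chr12:113147614-113148487, folds 14.8 and 12.3) with its neighbour Crip2, and the nearest open bound region was 72146 bp away. Crip1 was at 947, 923, 924 and 601 CPM in adult wild-type, 5210.2, 10309, 5956 and 6523 in CD11b low and 7324, 6396, 6119 and 6056 in CD11b high libraries. The knockouts were several times higher with no overlap, and Crip1 rose by 3.04 (log2, SE 0.24, adjusted p = 4.7e-08) in CD11b low, rose by 2.93 (log2, SE 0.24, adjusted p = 2.47e-08) in CD11b high, rose by 3.10 (log2, SE 0.36, adjusted p = 0.000427) in chromatin-matched and rose by 2.39 (log2, SE 0.18, adjusted p = 2.94e-06) in CD11cCre cells. Crip2 rose by 3.81 (log2, SE 0.63, adjusted p = 0.000301) in CD11b low (by 3.00 without knockout CD11b low replicate 2) and rose by 3.83 (log2, SE 0.62, adjusted p = 0.000125) in CD11b high cells. In E18 cells the Crip1 libraries overlapped, 2055, 799.5 and 1599.7 CPM in wild-type and 2596, 1696, 2427 and 1872 in knockout libraries.

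Cd109, a membrane-anchored inhibitor of TGFβ signalling, was close to absent in wild-type macrophages, at 0, 1.35, 0.663 and 1.02 CPM, and was read at 45.9, 53.2, 62.2 and 85.9 CPM in CD11b low and 80.0, 104, 182 and 152 in CD11b high libraries. The single outside region in the gene (chr9:78618404-78618781) was weak, with folds of 7.73 and 5.76. Wild-type values lay at or under the limit of 3 counts, so the fitted change depends on very few counts. Cd109 rose by 6.16 (log2, SE 0.50, adjusted p = 6.47e-08) in CD11b low, rose by 7.22 (log2, SE 0.48, adjusted p = 2.15e-09) in CD11b high and rose by 6.85 (log2, SE 0.46, adjusted p = 1e-05) in chromatin-matched cells. In E18 cells it was as low in knockout libraries (1.23, 0.703, 0 and 1.54 CPM) as in the wild type (0, 0.298 and 0.714). Igf1, a growth factor of tissue macrophages with an outside region before its start (chr10:87857298-87857898, folds 6.25 and 8.43, 141 bp from an ATAC peak), was at 31.8, 37.9, 32.5 and 19.5 CPM in adult wild-type and 424, 256, 197 and 248 in CD11b low libraries, and it rose by 3.21 (log2, SE 0.32, adjusted p = 6.1e-07).

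Myo6 carried the strongest region of all genes near outside regions alone. Adult wild-type libraries held 23.9, 28.4, 31.8 and 42 CPM, CD11b low 19.9, 12.0, 19.1 and 7.47 and CD11b high 1.51, 0.842, 2.72 and 1.47. The CD11b high libraries were nearly without Myo6 RNA and the CD11b low ones lay between. The CD11b high values lay under or near the limit of 3 counts, so the fitted change there depends on very few counts. Myo6 fell by 4.29 (log2, SE 0.43, adjusted p = 3.28e-07) in CD11b high and fell by 4.51 (log2, SE 0.38, adjusted p = 3.1e-05) in chromatin-matched cells, where it fell by 5.13 without knockout replicate 3. In CD11b low cells it fell by 1.03 (log2, SE 0.31, adjusted p = 0.0282), a call that was lost without knockout CD11b low replicate 2 or 4 (adjusted p 0.0634 and 0.0775) and without wild-type replicate 3 or 4 (0.057 and 0.103). In CD11cCre cells the values overlapped, 19.2, 17.6 and 25.5 CPM against 26.2, 16.8, 22.7 and 15.3, with a change of −0.02 (SE 0.21, adjusted p = 0.977), and in E18 cells the change was −0.88 (SE 0.65, adjusted p = 0.376), or −0.16 without wild-type replicate 3.

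Cd209a, beside the strongest region far from any ATAC peak, was at 10.1, 5.97 and 5.95 CPM in E18 wild-type and 473, 370.1, 316 and 682 in E18 knockout libraries, without overlap, and rose by 5.95 (log2, SE 0.36, adjusted p = 1.54e-07). In adult libraries it was at most 8.41 CPM. Cd209a is itself 1 of the 5 dendritic cell markers given above. S100a9, a calcium-binding protein of neutrophils, had an outside region 5230 bp from an ATAC peak (chr3:90686546-90687353, folds 10.9 and 8.23). It was at 2.07, 0.735 and 2.2 CPM in chromatin-matched wild-type and 232, 306 and 95.3 in knockout libraries, without overlap, and rose by 6.98 (log2, SE 0.59, adjusted p = 0.00011). In CD11cCre cells the values were 2.11, 2.12 and 3.29 and 5.73, 5.94, 10.5 and 7.44 CPM, and it rose by 1.52 (log2, SE 0.32, adjusted p = 0.00524). The 8 neutrophil markers, of which S100a9 is one, summed to 206 to 495 CPM in the chromatin-matched knockouts against 47.8 to 59.4 in the wild type, and to 323 to 396 against 49.3 to 71.1 in the CD11cCre experiment; their part in the result was not tested.

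The rule of largest rises and falls named further genes near outside regions alone. Slc41a1, a magnesium transporter with a region inside it (chr1:131844833-131845545, folds 11.7 and 8.23), was at 34.5, 43.3, 31.8 and 38.9 CPM in adult wild-type, 17.8, 8.59, 18.5 and 13.7 in CD11b low and 16.6, 15.2, 20.4 and 14.2 in CD11b high libraries. Both knockout groups lay below the wild type, and Slc41a1 fell by 1.25 (log2, SE 0.26, adjusted p = 0.0021), fell by 1.18 (log2, SE 0.26, adjusted p = 0.00174) and, in chromatin-matched cells, fell by 1.94 (log2, SE 0.23, adjusted p = 0.000267). Jup, the junction protein plakoglobin, had a region at chr11:100396273-100397348 and fell by 1.53 (log2, SE 0.30, adjusted p = 0.000813) in CD11b high and fell by 1.34 (log2, SE 0.21, adjusted p = 0.00145) in chromatin-matched cells. Nfyc, a subunit of the CCAAT-binding factor NF-Y, fell by 1.67 (log2, SE 0.29, adjusted p = 0.000178) in CD11b high cells. In the E18 cells the falls included Plgrkt, a plasminogen receptor, which fell by 1.51 (log2, SE 0.23, adjusted p = 0.000255), and the rises Relb, an NF-κB subunit, which rose by 1.92 (log2, SE 0.34, adjusted p = 0.000884), and Nectin1, an adhesion molecule, which rose by 1.90 (log2, SE 0.25, adjusted p = 7.61e-05). In the CD11cCre cells Vegfb, a growth factor of the VEGF family whose outside region (chr19:6975927-6976752) also lies in Ppp1r14b, rose by 0.85 (log2, SE 0.11, adjusted p = 0.000218).

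**Figure D5:**
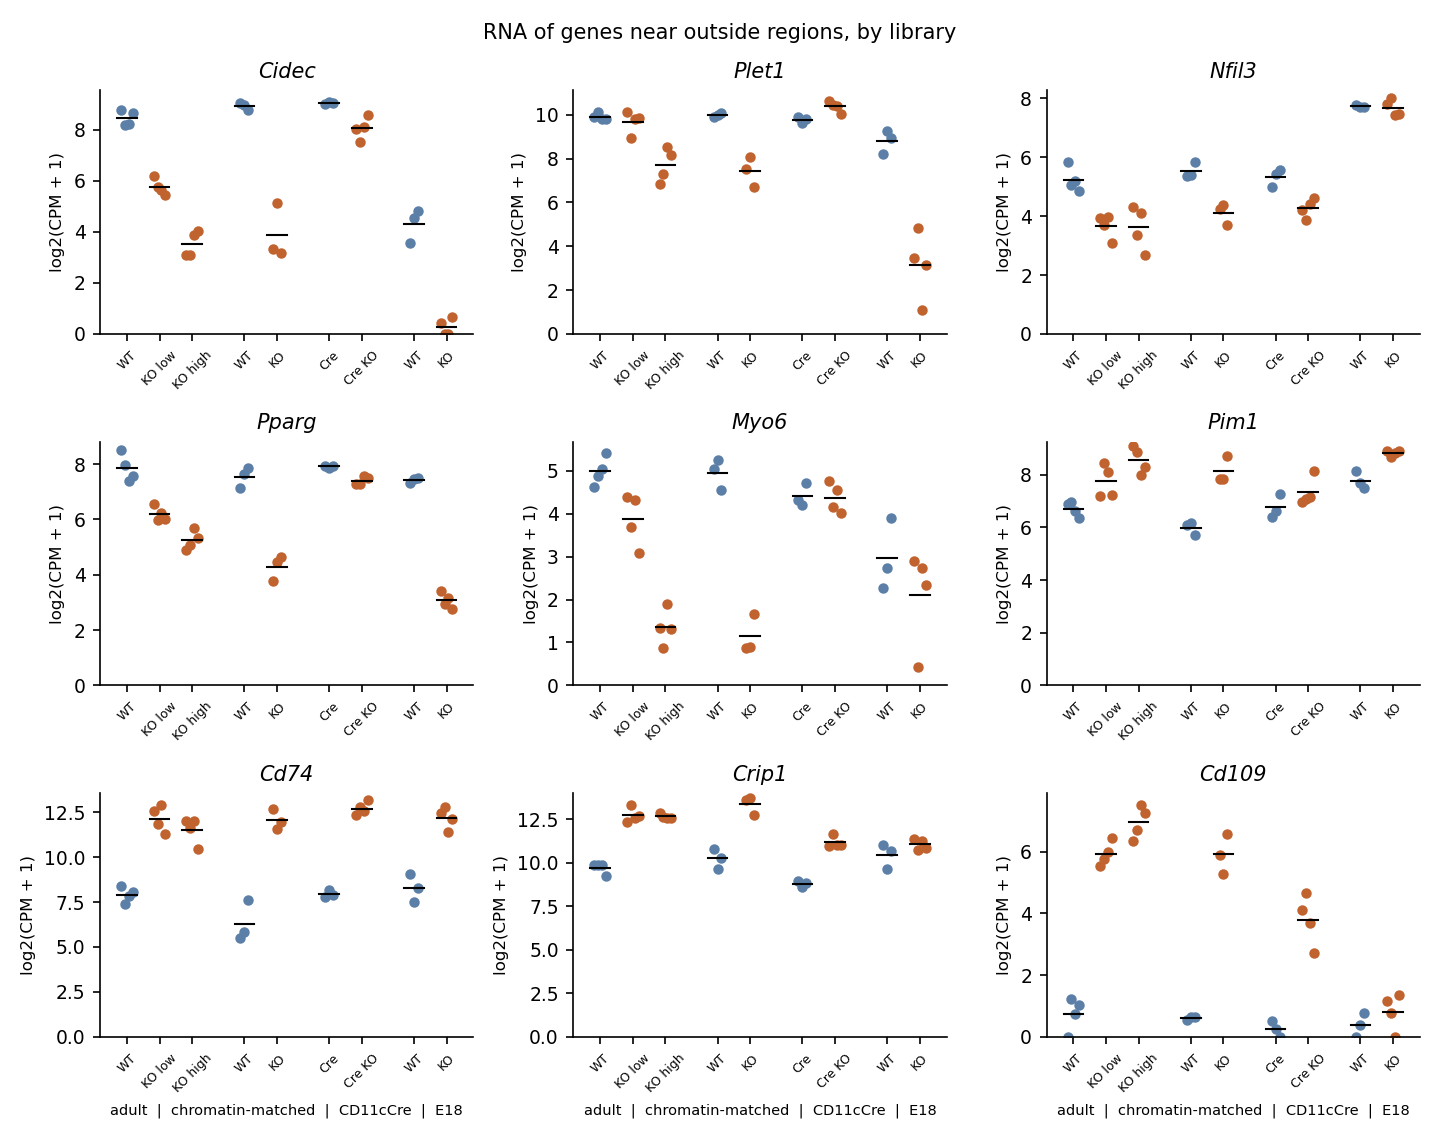
RNA level of 9 genes near outside regions, as log2(CPM + 1), in each library (points) with the group mean (black bars), control in blue and knockout in orange, for the adult, chromatin-matched, CD11cCre and E18 experiments. Cidec and Pparg are lower in every knockout group, Cd74 is higher in every one, and Myo6 is under 3 CPM in each CD11b high and chromatin-matched knockout library.

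The genes at the strongest outside regions differed in their response. Arid3a, with the strongest region, passed the test in none of the 5 comparisons: adult wild-type libraries held 15.9, 44.7, 29.8 and 22.5 CPM, CD11b low 18.5, 30.9, 21.9 and 23.7 and CD11b high 30.9, 39.6, 28.6 and 24.5, which overlap, with changes of −0.29 (SE 0.30, adjusted p = 0.561) and 0.13 (SE 0.29, adjusted p = 0.797). Cisd1, a mitochondrial iron-sulfur protein, fell by 1.18 (log2, SE 0.23, adjusted p = 0.000823) in CD11b high, fell by 1.09 (log2, SE 0.16, adjusted p = 0.00103) in chromatin-matched and fell by 1.12 (log2, SE 0.22, adjusted p = 0.00208) in E18 cells. Fabp5, a fatty acid carrier, lay too far from its outside region to be linked to it and was near open bound regions alone. It fell by 3.13 (log2, SE 0.27, adjusted p = 1.69e-06) in E18 cells and rose by 0.79 (log2, SE 0.19, adjusted p = 0.0134) in CD11cCre cells, where the adjusted p was 0.0895 and 0.055 without control replicate 1 or 3. In chromatin-matched cells its change was 1.17 (SE 0.43, adjusted p = 0.083), or 0.45 without knockout replicate 3, while without knockout replicate 1 it rose by 1.50 (adjusted p = 0.0156). Csf2ra, the α chain of the CSF2 receptor, had a weak outside region (chr19:61221456-61221748, folds 6.25 and 5.47) and passed in no comparison, at 248 to 309 CPM in adult wild-type, 279 to 391 in CD11b low and 245 to 345 in CD11b high libraries. Ccr2, the chemokine receptor of monocytes, had a weak one at its start (chr9:124101795-124102072, folds 5.47 and 5.76) and passed in CD11cCre cells alone, from 7.58, 5.41 and 6.26 to 22.9, 17.1, 22.7 and 16.3 CPM without overlap, where it rose by 1.64 (log2, SE 0.21, adjusted p = 0.00015).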

How the data were processed

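Peak lists and gene counts were used as the authors deposited them. The peak lists hold 1 library each; per the submitters' processing notes the tools included BWA 0.7.17, Bowtie2 and MACS2 2.2.7.1, and the build was GRCm38. From the deposited lists the fold over background, the −log10 p and the −log10 q of each peak were read, and the deposited score is 10 times the −log10 q. The ChIP lists begin at a −log10 q of about 5 and the ATAC lists at about 1.3. The ATAC lists held 81880 to 101952 peaks and the ChIP lists 27105 and 22558. RNA counts are the authors' whole-number counts per gene, with STAR 2.6.1a and featureCounts 1.6.3 among the tools per the submitters' processing notes; per the labels' protocols the libraries are 3′ end libraries with barcoded primers, and the sources used here do not say whether reads with the same molecule barcode were merged. Of 22050 genes in the count table, 20570 matched RefSeq by symbol and 770 by synonym, and 67 count columns of other samples were not used.

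Peaks were merged with pandas and checked with bedtools 2.31.1. Counts were tested with edgeR 4.0.16 in R 4.3.3 (TMM scaling, filterByExpr with a count minimum of 10, quasi-likelihood test), 1 fit for each of the 4 experiments with the adult one holding 3 groups, and p-values were adjusted by the Benjamini-Hochberg method over all genes tested. Calls were made at adjusted p-values below 0.05, and the SE was taken as the log2 change over the square root of F. CPM values are counts scaled to the library total times its TMM factor, while the limits of 3 counts used the unscaled totals. The fit was tested on simulated data. Genes named for outside regions alone were the 6 largest rises and 6 largest falls in each comparison among called genes with at least 20 CPM in 1 group and no overlap of the groups, plus list members; regions named were the 10 with the highest lower fold. The members and lists were chosen with earlier results of these data known. Alternatives were DESeq2 1.42.0, no filter, a replicate block, each library or list left out, and other overlaps, q limits and linking distances.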

Additional observations from a re-analysis of the deposited data

Results flagged for a closer look

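Single libraries stood apart from the other 3 of their group in 7 of 84 groups of 4 libraries examined for genes near outside regions, by Dixon's test at its 95% critical value, and chance alone gives about 1 in 20. For Crip1, 1 adult wild-type library held 600.6 CPM (600.593) where the others held 923 to 947. Crip1 also had 1 CD11cCre knockout library at 3214 CPM (3214.08), with the others at 1991 to 2106. Its neighbour Crip2 was at 127.1 CPM (127.084) in 1 CD11b low library and at 22.6 to 29.9 in the others. Csf2ra was at 308.6 CPM (308.605) in 1 adult wild-type library, against 248 to 256. Enoph1 was at 15.5 CPM (15.4561) in 1 CD11b low library, against 23.7 to 24.7. Pim1 was at 282 CPM (282.089) and Rhbdf1 at 38.1 CPM (38.1075) in 1 CD11cCre knockout library each, against 124 to 141 and 18.3 to 19.1.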

How the results depend on the processing

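The number of outside regions moved most with the lists and limits used. Against 1892 regions (10.1%), there were 720 (6.215%) with a ChIP −log10 q of at least 10, 2868 (15.29%) with ATAC overlap counted at the ChIP summit alone, 3602 (19.21%) with the knockout ATAC lists alone and 2155 (11.49%) with the control lists alone. The share was 7.701% with ATAC peaks extended by 500 bp and 11.57% with ATAC peaks of −log10 q of at least 5. Leaving out 1 list in turn gave 1930 to 4964 regions (10.29 to 18.31%), with the highest values without ChIP replicate 2 (4964) and without ChIP replicate 1 (3029). With gene starts counted to 5 kb, 27.92% of outside and 30.75% of open bound regions were at one. The strict palindrome gave 0 of 28 outside windows and 1.537% of open ones, and the motif TTGCNNCAA as first listed 0 and 2.113%.

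The count of called genes near outside regions alone ran from 12 to 24 in CD11b low, 23 to 37 in CD11b high, 30 to 58 in chromatin-matched, 18 to 32 in CD11cCre and 16 to 33 in E18 cells when 1 library was left out in turn. Linked within 50 kb it was 15 in CD11cCre and 15 in E18 cells. With DESeq2 it was 22, 29, 45, 24 and 34. Deviations of same-numbered samples from their group means correlated at −0.375 to 0.179 in the adult experiment and −0.0234 to 0.152 in the others. With so few libraries in a group, these values cannot decide whether same-numbered samples came from the same animal. The main fits used no pairing. The replicate block gave 13 genes in CD11b low and 35 in CD11cCre cells, and 24, 44 and 27 in CD11b high, chromatin-matched and E18 cells; Myo6 in CD11b low cells had an adjusted p of 0.053 with the block. Over the named genes and the promoter motif shares, 4200 values kept their direction and call under the alternatives run, 221 lost the call, 68 gained it, 4 motif shares moved as given above, and none reversed. A motif search around ChIP summits was not run, since no genome was given. The causes of these differences were not tested. Depth limits genes under about 0.506 to 4.67 CPM, where 3 counts or fewer were read.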

Other observations

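The outside region with the highest caller's q for its fold lay at chr2:98663547-98664186, with folds of 27.4 and 31.2 and −log10 q values of 295 and 270. Its −log10 q per unit of fold was 9.46, against a median of 1.34 over outside regions, and its nearest ATAC peak was 558 bp away. No filter for regions of artefact signal was applied, and this region is counted among the 1892. Sequences other than the numbered chromosomes and X had 57 bound regions, of which 44 were outside, and 7 of these lay on a sequence without any ATAC peak.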
